A study of Saccharomyces cerevisiae with 8 samples.

Results

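Cytochrome c oxidase is the last enzyme of the respiratory chain. It takes electrons from cytochrome c and passes them to oxygen in the inner mitochondrial membrane. In budding yeast its catalytic core (COX1, COX2 and COX3) is encoded in the mitochondrion, and the subunits around the core are encoded in the nucleus. Budding yeast represses the nuclear genes of respiration while it ferments glucose, and the Hap2/3/4/5 complex, which binds CCAAT elements and whose activating subunit is Hap4, raises them when glucose runs out. The genes described here are COX4 (YGL187C), COX5A (YNL052W), COX6 (YHR051W), COX7 (YMR256C), COX8 (YLR395C), COX9 (YDL067C), COX12 (YLR038C) and COX13 (YGL191W). They were chosen by name as nuclear subunit genes of the enzyme and not by a measured value, though with earlier results of these data known. They are 8 of the 6600 features in the count tables, and all 8 passed the filter on low counts.

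RNA was sequenced from 5 histone strains of Saccharomyces cerevisiae taken from cultures at 16 h in rich glucose medium (YPD). The groups were H4K16Q (lysine to glutamine in histone H4, 2 libraries), H4H18A (histidine to alanine in H4, 2 libraries), WT H4 (2 libraries), H3E50A (glutamate to alanine in histone H3, 1 library) and WT H3 (1 library). The comparisons asked how each substitution changed expression relative to the WT strain of the same histone. All strains derive from JDY86 and share its background, in which one histone H3 and H4 gene pair (hht1-hhf1) is replaced by NatMX4 and the other (hht2-hhf2) by a synthetic cassette with URA3, so each strain lives on the cassette's histones. As described, they also share mating type a, the markers his3, leu2, trp1, ura3 and met15, and MFA1pr-HIS3 at CAN1. The described genotype also holds a further deletion whose gene name is printed unclearly. Each strain is 1 construct, so a change cannot be separated from another difference that the strain may carry. In the labels, the strain field of these mutant libraries writes H3K16Q and H3H18A, whereas the series' design text writes H4K16Q and H4H18A. The deleted markers LEU2 and TRP1 had 0 counts in every library and MET15 had at most 1. HIS3, present in the described strains only as MFA1pr-HIS3, had 12 to 331 counts in 7 libraries but 0 in the library labelled H4H18A replicate 2, where 3 counts would be 3.44 CPM. That library goes against the described background in this gene, and results for H4H18A are also given without it. HHT1, HHF1 and HHT2, listed as replaced, had counts in every library (12 to 4609), and HHF2 had 0 to 4, while a count per gene does not separate the cassette's histones from the native copies. Counts per gene do not show the substitutions, so these data do not check the strain names.

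The libraries held between 621770 and 10529401 counts, with both H4H18A libraries the shallowest. Levels are given in CPM, the usual scale of counts relative to library size, here after TMM scaling. The limit set by a count of 0, taken as 3 counts, was 0.217 CPM in the deepest library and 7.06 CPM in the shallowest. Features at ribosomal RNA and snoRNA genes took 2.47% and 4.91% of the counts in H4K16Q, 32.6% and 34.4% in H4H18A, and 24.7% and 23% in WT H4. They took 6.11% in H3E50A and 35.6% in WT H3. Library composition and strain thus cannot be told apart for H3E50A and H4K16Q against their WT strains. The feature YGL088W, at a snoRNA gene, took 22.9% in WT H4 replicate 1, 15.7% in H4H18A replicate 1 and at most 3.82% elsewhere. COX1, COX2 and COX3 were listed at 0 in every library, as were all 28 mitochondrial features, so only the nuclear side of the enzyme was measured. The lowest count of a member was 4, for COX7 in H4H18A replicate 2. Intervals and limits given for counts cover counting error only, and in bulk RNA a change in all cells and a change in a share of the cells cannot be told apart.

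For the sum of these genes, libraries of the same H4 strain stood further apart than the means of the H4 strains. The 8 members summed to 1249 and 535.9 CPM in H4K16Q (replicates 1 and 2), 1205 and 387.6 CPM in H4H18A, and 1006 and 338.6 CPM in WT H4. They summed to 3441 CPM in H3E50A and 418.7 CPM in WT H3. Thus replicate 1 of each H4 strain was above replicate 2 of every H4 strain, and H3E50A was above all. All members but COX8, which makes 7 of 8, had a higher level in replicate 1 than in replicate 2 in all of H4K16Q, H4H18A and WT H4, which was so for 17.1% of the 5962 genes kept over the 8 libraries. The median log2 ratio of replicate 1 to replicate 2 over the members was 1.45 for the H4K16Q pair, 1.80 for the H4H18A pair and 1.62 for the WT H4 pair, while over all genes it was 0.10, 0.00 and 0.05 for these pairs.

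Markers of growth on carbon sources other than glucose moved with these sums. The 9 glucose-repressed genes of the list (ADH2, ICL1, MLS1, PCK1, FBP1, JEN1, ACS1, SFC1 and CAT8) summed to 14720 and 702.7 CPM in H4K16Q, 3676 and 215.6 CPM in H4H18A, and 5180 and 202.1 CPM in WT H4. They summed to 21080 CPM in H3E50A and 308.6 CPM in WT H3. These sums too were higher in replicate 1 of each H4 strain and highest in H3E50A. Not every gene of the list followed the sum, since ADH2 had 168 CPM in H3E50A but 1190 and 314 CPM in H4K16Q, and ACS1 had 1560 CPM in H3E50A but 2760 CPM in H4K16Q replicate 1. The 137 cytoplasmic ribosomal protein genes summed to 61870 and 110800 CPM in H4K16Q, 65150 and 43630 CPM in H4H18A, and 7371 and 45310 CPM in WT H4. They summed to 12950 CPM in H3E50A and 48380 CPM in WT H3. WT H4 replicate 1 stood apart from the other H4 libraries by its low ribosomal protein sum. The part of growth stage in the levels of the oxidase genes was not tested.

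**Figure D1:**
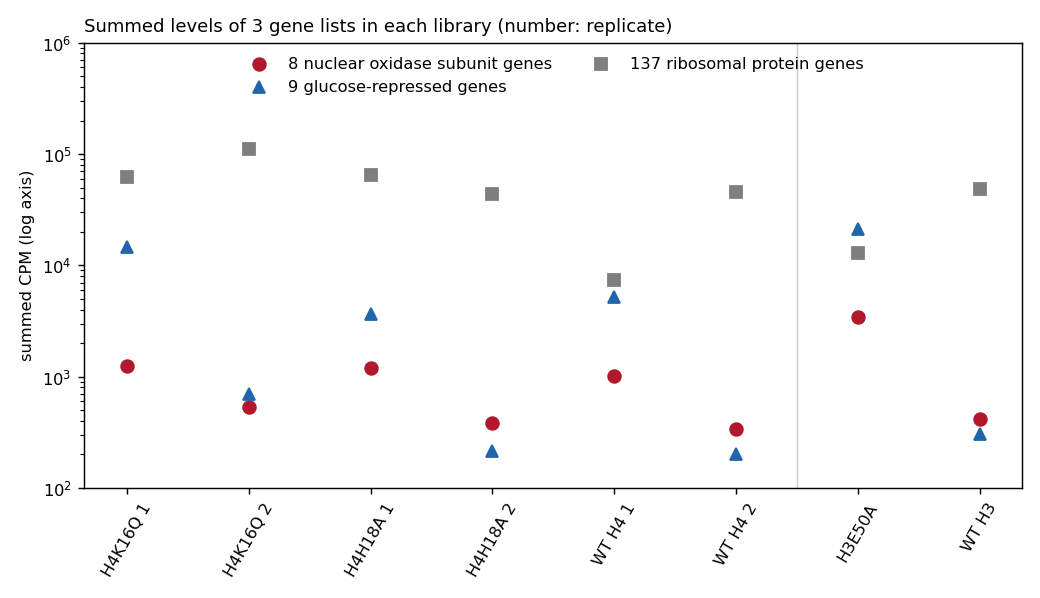
Summed CPM (log axis) of the 8 oxidase subunit genes (circles), 9 glucose-repressed genes (triangles) and 137 ribosomal protein genes (squares) in each of the 8 libraries, 1 point a library. The circles lie between 1006 and 1249 CPM in replicate 1 of the H4 strains, between 338.6 and 535.9 CPM in replicate 2, at 3441 CPM in H3E50A and at 418.7 CPM in WT H3, and the triangles order the replicates of each strain the same way.

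The regions before the coding starts are shown because the members moved together across libraries and because the CCAAT element is what the Hap complex binds. The letters CCAAT, searched on both strands in the 300 bases before each coding start, were found in 7 of the 8 members, and COX4 had none in this window. The windows are counted from the coding start and not from the start of transcription. An untranslated leader, or an intron in it, can therefore fill a window. The absence in COX4 does not show that its promoter lacks the element. Among all 5897 coding genes with such a window, 42.3% held CCAAT. The longer form ACCAATNA, which contains CCAAT, was found in 4 members (COX6, COX8, COX12 and COX13) and in 5.24% of all windows. In the stretches below, from the R64 genome of RefSeq, capitals mark CCAAT, or ATTGG where the match is on the opposite strand, and each is read 5′ to 3′ on the strand of its gene.
COX5A: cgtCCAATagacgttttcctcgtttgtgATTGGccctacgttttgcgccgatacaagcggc
COX6: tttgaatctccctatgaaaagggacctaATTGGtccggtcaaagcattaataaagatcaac
COX7: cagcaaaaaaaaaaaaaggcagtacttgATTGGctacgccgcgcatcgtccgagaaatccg
COX8: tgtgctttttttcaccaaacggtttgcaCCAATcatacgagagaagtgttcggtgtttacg
COX9: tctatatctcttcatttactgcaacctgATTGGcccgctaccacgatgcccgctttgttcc
COX12: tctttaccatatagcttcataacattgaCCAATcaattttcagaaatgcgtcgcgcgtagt
COX13: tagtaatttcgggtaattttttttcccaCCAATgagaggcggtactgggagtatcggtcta
COX5B: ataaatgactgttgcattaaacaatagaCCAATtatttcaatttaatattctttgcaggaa

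In R64 these 61-base stretches lie at chrXIV:531552-531612 (COX5A, + strand), chrVIII:209462-209522 (COX6, +), chrXIII:779257-779317 (COX7, −), chrXII:910134-910194 (COX8, −), chrIV:334511-334571 (COX9, −), chrXII:225345-225405 (COX12, −), chrVII:144568-144628 (COX13, +) and chrIX:155122-155182 (COX5B, +). Distances are those of the base of a match that is closest to the coding start. In the members, the nearest match lay between 141 bases (COX5A) and 211 bases (COX6) before the start. In COX5B, the gene of the alternative isoform of subunit 5, the nearest match lay at 68 bases, and COX5B too held the longer form ACCAATNA. The letters ATTGTTC, a core of the element bound by the hypoxic repressor Rox1, were found in COX5A, COX6 and COX5B and in 7.51% of all windows. CCAAT was also found in 14 of 14 windows of ATP synthase genes, 7 of 9 of the bc1 complex, 4 of 4 of succinate dehydrogenase and 16 of 33 of the factors that assemble or translate the oxidase. ACCAATNA was found in 8, 2, 0 and 1 of these windows, in the same order. A match is a description of letters and not of binding.

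H3E50A had the highest level of all 8 libraries for every member. The share of all genes for which H3E50A was highest was 21.1%. Relative to WT H3, all 8 members were higher, by 5.46-fold (COX8) to 14.2-fold (COX4), and their sum was 8.22-fold higher (counting interval 7.59 to 8.91). The median log2 ratio of the members was 2.95, while that of all genes was 0.00. A log2 ratio above 0 was found for 49.3% of the 5962 genes, above 1 for 22.1% and above 3 for 3.71%, against 8, 8 and 3 of the 8 members. There was 1 library of each strain, so the spread between cultures of H3E50A is not known and the ratios were not tested.

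The subunits with large parts on the matrix side of the membrane, or next to the core, are encoded by COX4, COX5A and COX6. COX4 (chromosome VII, 149704 to 150171, − strand) had 513 CPM in H3E50A and 35.8 CPM in WT H3 (log2 ratio 3.82, counting interval 3.46 to 4.25). COX5A (chromosome XIV, 531725 to 532186, + strand), which encodes the aerobic isoform of subunit 5, had 699 CPM in H3E50A and 107 CPM in WT H3 (log2 ratio 2.71, interval 2.48 to 2.95). COX6 (chromosome VIII, 209705 to 210151, + strand) had 271 CPM in H3E50A and 35.2 CPM in WT H3 (log2 ratio 2.93, interval 2.55 to 3.37). The interval of COX4 lay above those of COX5A and COX6. Each of these genes, like the other members, is 1 coding exon that no other annotated gene overlaps.

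The small subunits that cross the membrane and surround the core are encoded by COX7, COX8, COX9 and COX13. COX7 (chromosome XIII, 778945 to 779127, − strand) had 161 CPM in H3E50A and 15.6 CPM in WT H3 (log2 ratio 3.32, interval 2.78 to 4.01). COX8 (chromosome XII, 909729 to 909965, − strand) had 226 CPM in H3E50A and 41 CPM in WT H3 (log2 ratio 2.45, interval 2.09 to 2.85). The ratio of COX8 was the lowest among the members, and the 41 CPM of WT H3 was above the WT H4 libraries. COX9 (chromosome IV, 334217 to 334396, − strand) had 418 CPM in H3E50A and 58 CPM in WT H3 (log2 ratio 2.84, interval 2.54 to 3.17). COX13 (chromosome VII, 144808 to 145197, + strand) had 777 CPM in H3E50A and 98.3 CPM in WT H3 (log2 ratio 2.98, interval 2.75 to 3.23). COX12 (chromosome XII, 224921 to 225172, − strand), whose product sits on the side of the intermembrane space, had 376 CPM in H3E50A and 28 CPM in WT H3 (log2 ratio 3.72, interval 3.31 to 4.22). The intervals of COX4 and COX12 lay above that of COX8, so the members did not all change by the same factor within counting error.

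The next highest library was always replicate 1 of an H4 mutant. H3E50A stood 3.99-fold above it for COX8 and 3.51-fold for COX12. The step was smallest for COX9, at 1.48-fold, where H4H18A replicate 1 had 282 CPM.

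**Figure D2:**
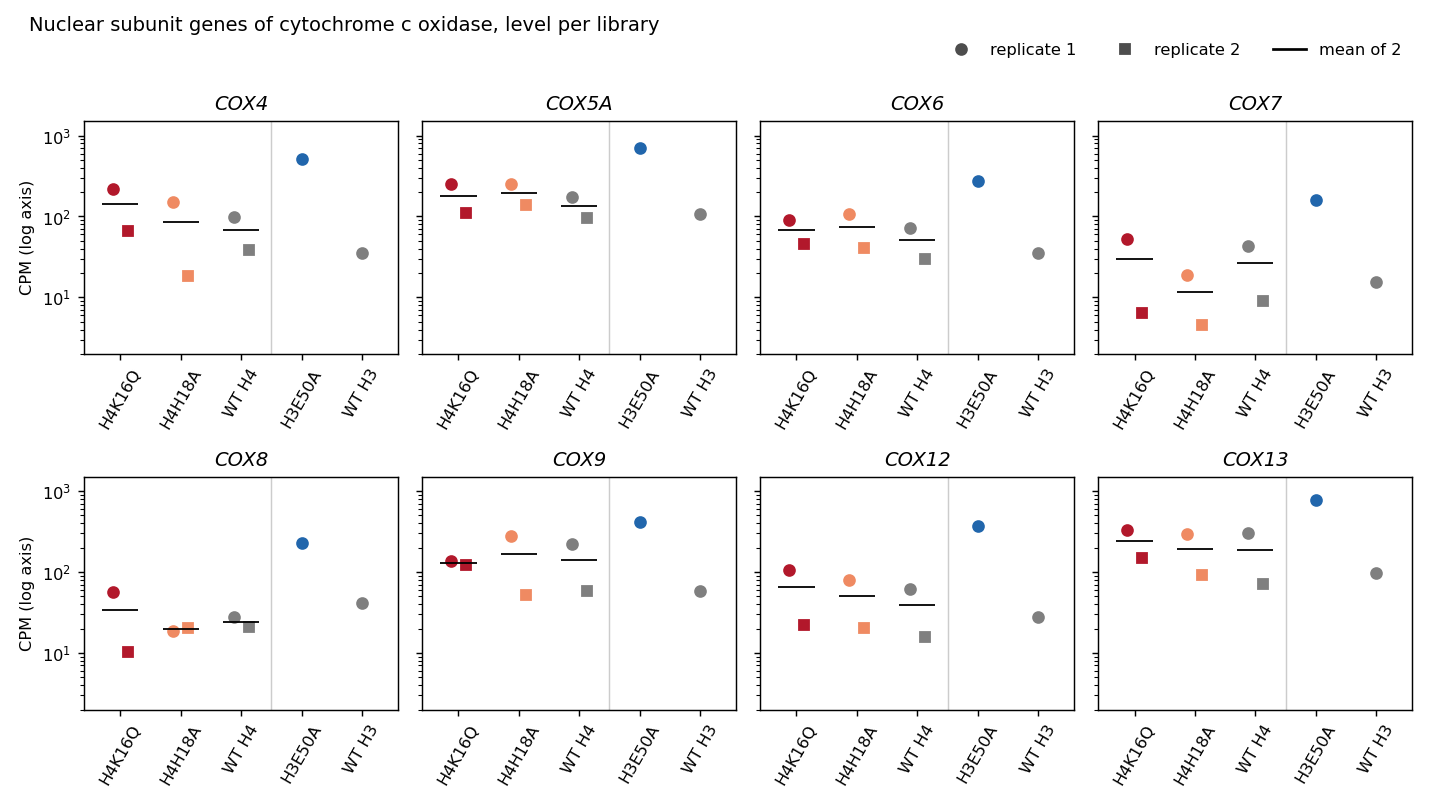
Level of each of the 8 genes in CPM (log axis) in the 8 libraries, with circles for replicate 1, squares for replicate 2 and a bar for the mean of 2. H3E50A is the highest point in every panel (161 to 777 CPM), and the replicates of an H4 strain are mostly further apart than the strains.

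In H4K16Q the fitted change of the members was small next to the replicate error. COX4 had 219 and 65.7 CPM in H4K16Q, against 98.5 and 39 CPM in WT H4, the largest log2 fold change of the members at 1.03 ± 0.98 (SE, n = 2 libraries each; edgeR quasi-likelihood test, Benjamini-Hochberg adjusted p = 0.997). COX12 had 107 and 22.3 CPM in H4K16Q, against 62.5 and 15.6 CPM in WT H4. COX13 had 334 and 151 CPM in H4K16Q, against 304 and 70.2 CPM in WT H4. In each of these the higher library of WT H4 stood between the libraries of H4K16Q.

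COX5A had 251 and 112 CPM in H4K16Q, against 176 and 95.5 CPM in WT H4. COX6 had 90.6 and 46.3 CPM in H4K16Q, against 72.4 and 29.9 CPM in WT H4. COX7 had 52.5 and 6.4 CPM in H4K16Q, against 43.5 and 9.1 CPM in WT H4. COX7 was the member whose H4K16Q replicates differed most, by 8.20-fold. COX8 had 56.7 and 10.3 CPM in H4K16Q, against 27.6 and 20.8 CPM in WT H4. COX9 had 138 and 123 CPM in H4K16Q, against 222 and 58.5 CPM in WT H4. COX9 was the only member with a log2 fold change below 0, at −0.12 ± 0.91 (SE), and the only one whose H4K16Q replicates were close (1.13-fold apart).

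A log2 fold change above 0 in H4K16Q was found for 7 of the 8 members and for 44.4% of the 5669 genes tested. The median over the members was 0.40 and over all genes −0.10. For 0 of the 8 members did the libraries of H4K16Q and WT H4 lie apart without overlap, while they did for 30.9% of all genes. An adjusted p under 0.05 was reached by 0 of the 8 members and 0% of all genes (edgeR quasi-likelihood test). An unadjusted p under 0.05 was found for 0 members and 3.72% of all genes, and DESeq2's Wald test called 15 genes, none of them a member. Without H4K16Q replicate 1 the median over the members was −0.14, with 2 of 8 above 0, and without WT H4 replicate 1 it was 1.44, with 8 of 8 above 0. Members were mostly higher in replicate 1 of each H4 strain, so leaving out 1 library of 1 strain by itself shifts this median. Between libraries of the same number, the median log2 ratio of H4K16Q to WT H4 was 0.41 for replicate 1 (7 of 8 above 0). For replicate 2 it was 0.56 (6 of 8 above 0), though the numbers are not stated to pair the libraries.

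In H4H18A the members were spread on both sides of WT H4. COX5A had 254 and 139 CPM in H4H18A, against 176 and 95.5 CPM in WT H4, the highest log2 fold change at 0.52 ± 0.75 (SE, n = 2 libraries each). COX6 had 106 and 41.3 CPM in H4H18A, against 72.4 and 29.9 CPM in WT H4. COX12 had 80 and 20.6 CPM in H4H18A, against 62.5 and 15.6 CPM in WT H4. In these 3 genes the higher H4H18A library was above the higher WT H4 library and the lower above the lower, but the groups overlapped. COX4 had 153 and 18.3 CPM in H4H18A, against 98.5 and 39 CPM in WT H4. COX9 had 282 and 51.6 CPM in H4H18A, against 222 and 58.5 CPM in WT H4. COX13 had 292 and 91.7 CPM in H4H18A, against 304 and 70.2 CPM in WT H4. Of these, COX4 had the widest gap between replicates of any member in any strain, 8.34-fold in H4H18A.

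The members with a log2 fold change below 0 in H4H18A were COX7 and COX8. COX7 had 18.8 and 4.59 CPM in H4H18A, against 43.5 and 9.1 CPM in WT H4, a log2 fold change of −1.31 ± 1.2 (SE). COX8 had 18.8 and 20.6 CPM in H4H18A, against 27.6 and 20.8 CPM in WT H4, a log2 fold change of −0.30 ± 0.83 (SE). COX8 was the 1 member of 8 whose groups did not overlap, with 20.6 CPM next to 20.8 CPM at the closest, while 26% of all genes did not overlap. Both genes had few counts in these shallow libraries.

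A log2 fold change above 0 in H4H18A was found for 6 of 8 members, and for 44.4% of all genes. The median over the members was 0.26 and over all genes −0.09. With libraries scaled by total counts only, 1 of 8 members was above 0 and the median was −0.36, while the median over all genes moved to −0.56. An adjusted p under 0.05 was reached by 0 of 8 members and 0% of all genes in edgeR's quasi-likelihood test, where every member had an adjusted p of 0.999, and DESeq2 called 0 genes. An unadjusted p under 0.05 was found for 0 members and 2.22% of all genes. Without H4H18A replicate 2, the library with no HIS3 counts, the median of the members was 1.01, with 6 of 8 above 0. Without H4H18A replicate 1 it was −0.98, with 1 of 8 above 0, and without WT H4 replicate 1 it was 1.21, with 7 of 8 above 0.

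Between the H4 mutants, 5 of 8 members had a log2 fold change above 0 in H4K16Q relative to H4H18A, against 55% of all genes. The median was 0.36 over the members and 0.07 over all genes. The highest value was that of COX7, 1.44 ± 1.19 (SE, n = 2 libraries each), and the lowest that of COX9, −0.36 ± 0.92. An adjusted p under 0.05 was reached by 0 of 8 members and 0% of all genes (edgeR quasi-likelihood test), and an unadjusted p under 0.05 by 0 members and 1.55% of all genes. The libraries overlapped in all 8 members, while 26% of all genes did not overlap. DESeq2's Wald test called 6 genes, none of them a member. Without H4K16Q replicate 1 the median was −0.61, with 0 of 8 above 0, and without H4H18A replicate 1 it was 1.37, with 8 of 8 above 0. Without H4H18A replicate 2 it was −0.21, with 2 of 8 above 0.

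**Figure D3:**
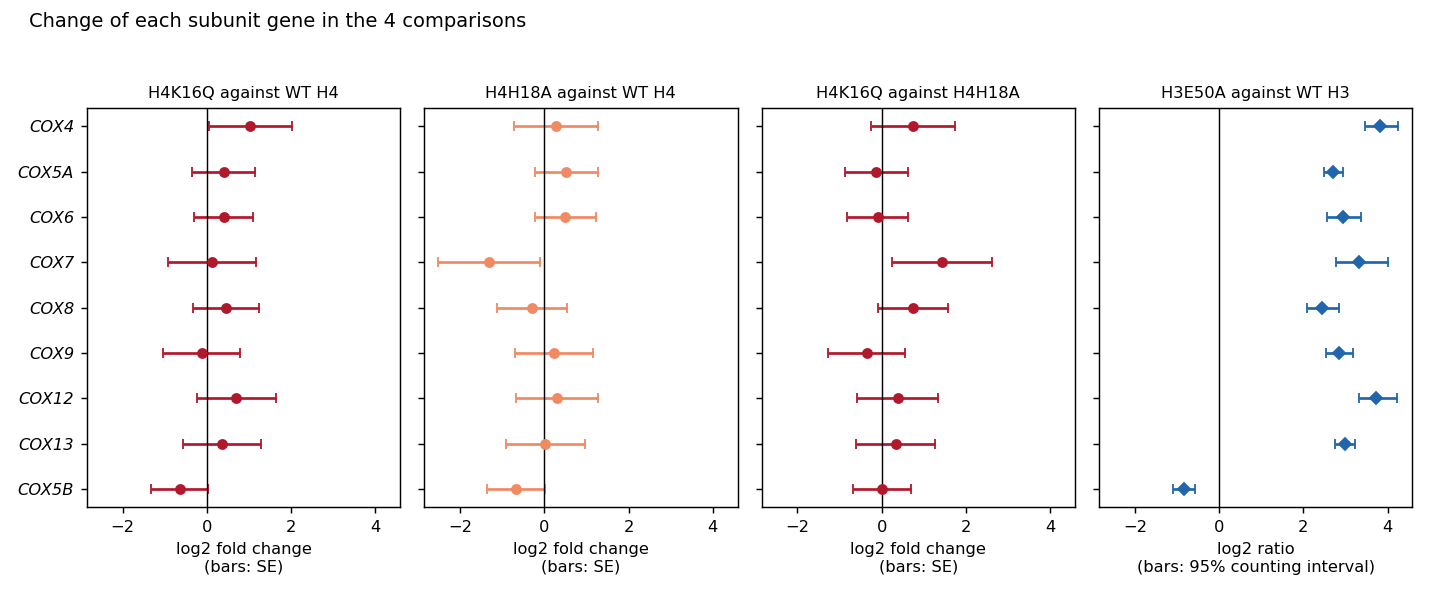
Change of each member and of COX5B in the 4 comparisons, as log2 fold change with its SE for the H4 strains (n = 2 libraries each) and as log2 ratio with its 95% counting interval for H3E50A against WT H3 (1 library each). The members lie between −1.31 and 1.44 in the H4 comparisons, with bars that mostly cross 0, and between 2.45 and 3.82 in H3E50A, where COX5B is at −0.83.

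Whether the change in H3E50A differed from that in the H4 mutants was tested in 1 fit of all 8 libraries, in which the lone H3E50A and WT H3 libraries were assumed to vary like the replicated strains. The change in H3E50A exceeded that in H4K16Q by a log2 difference of 2.0 (COX8) to 3.22 (COX7). It exceeded that in H4H18A by 2.18 (COX5A) to 4.68 (COX7). These estimates all rest on the same lone H3E50A and WT H3 libraries, so a direction shared by the members is not 8 separate results. The estimates of all 8 members had the same direction, but none passed the threshold after Benjamini-Hochberg adjustment in edgeR's quasi-likelihood test, nor did any other of the 5962 genes. The smallest unadjusted p of a member was that of COX7 against H4H18A, 0.0348 (adjusted p = 0.748, log2 difference 4.68 ± 1.93 SE). An unadjusted p under 0.05 was found for 224 genes in the difference from H4K16Q and for 285 genes in that from H4H18A. Without WT H4 replicate 2, 84 and 30 genes passed the adjusted threshold in these differences, none of them a member. Without H4H18A replicate 2, 0 genes passed it in the difference from H4H18A.

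Subunit 5 has 2 isoforms in yeast, and the data held both. COX5A is the isoform of aerobic growth and COX5B (YIL111W, chromosome IX, 155222 to 155765, + strand, 2 exons) that of low oxygen. COX5B had 71.8 CPM in H3E50A and 128 CPM in WT H3, a ratio of 0.561 (log2 −0.83, counting interval −1.10 to −0.57), so it was lower where COX5A and the other members were higher. It had 70.5 and 157 CPM in H4K16Q, against 214 and 140 CPM in WT H4. It had 132 and 92.9 CPM in H4H18A, against the same WT H4 libraries, and both were below both WT H4 libraries (log2 fold change −0.66 ± 0.69 SE, adjusted p = 0.999 in edgeR's quasi-likelihood test).

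The ratio of COX5A to COX5B, each per length of coding sequence, was 9.61 in H3E50A (counting interval 8.55 to 10.8) and 0.822 in WT H3 (0.664 to 1.02). It was 3.51 and 0.70 in H4K16Q, 1.90 and 1.47 in H4H18A, and 0.814 and 0.672 in WT H4. The 3 WT libraries thus lay close together, below 1, even though the members summed to 1006 CPM in WT H4 replicate 1 and to 338.6 and 418.7 CPM in the other WT libraries. Both H4H18A libraries were above 1, whereas H4K16Q replicate 2 lay within the range of the WT H4 libraries. An exact two-sided permutation test of the log ratio gave p = 0.333 for H4H18A against WT H4, the smallest that 2 against 2 libraries can give, and p = 0.667 for H4K16Q against WT H4. The coding sequences of COX5A and COX5B (462 and 456 bases) were identical in 65.5% of their aligned columns, and the longest run that they shared was 12 bases, shorter than a sequencing read.

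**Figure D4:**
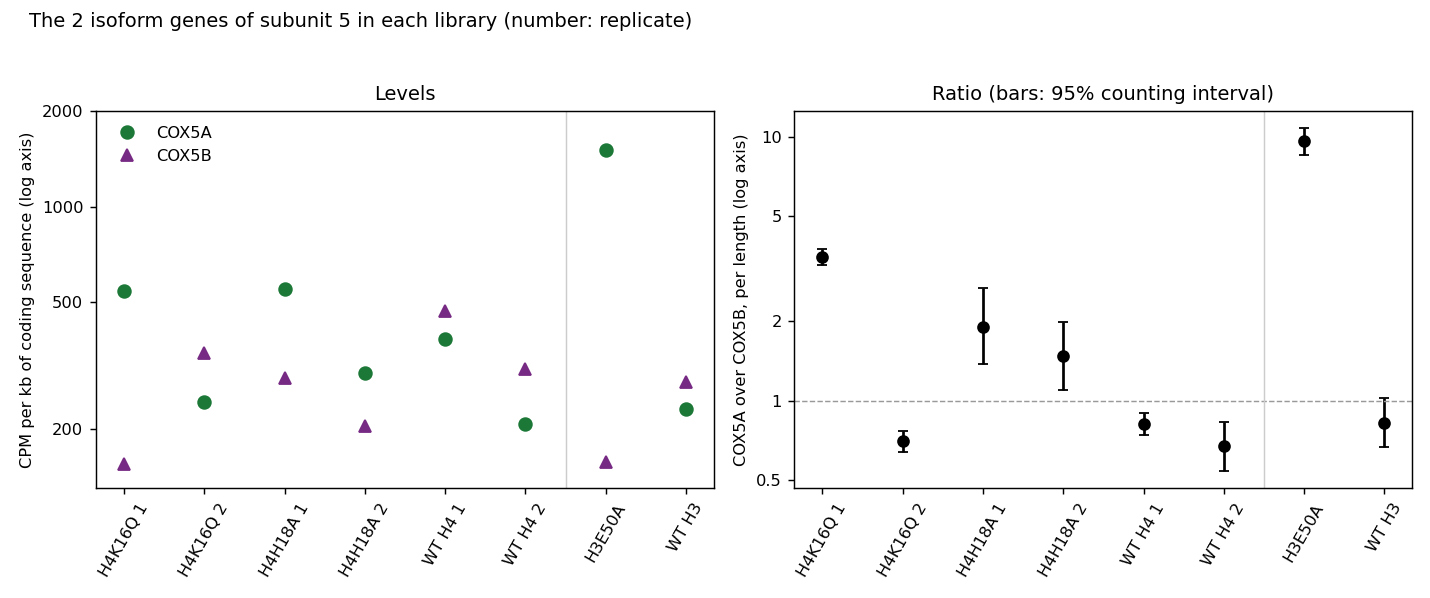
Levels of COX5A (circles) and COX5B (triangles) per kb of coding sequence in each library (left, log axis), and their ratio with its 95% counting interval (right, log axis; dashed line, equal levels). The ratio is 9.61 in H3E50A, 0.70 to 3.51 in the H4 mutants and 0.672 to 0.822 in the 3 WT libraries.

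Within a library the members did not stand at 1 level. Per kb of coding sequence, the most abundant 3 members were COX9, COX13 and COX5A in all 8 libraries. COX9 was above COX13 in 7 of 8 libraries (median over libraries 724 and 567 CPM per kb), COX13 above COX5A in 6 of 8, and COX5A above COX12 in 8 of 8 (341 and 180 CPM per kb). Further down, COX4 was above COX6 in 6 of 8 libraries, and the other neighbours had no steady order. COX12 was above COX4 in 4 of 8 libraries, COX6 above COX8 in 4 of 8, and COX8 above COX7 in 5 of 8 (102 and 94.2 CPM per kb). The highest member was 3.83 times the lowest in H3E50A and 4.21 times in WT H3, while this ratio ranged between 4.23 and 19.8 in the H4 libraries. The widest range was that of H4H18A replicate 1, where COX8 rested on 8 counts.

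The profile of the members over the 8 libraries was described by Pearson's r of log2 CPM with the mean of the members, each gene centred. With itself left out of the mean, r was highest for COX12 (0.992) and lowest for COX8 (0.758), with COX9 at 0.855. COX5B had r = −0.459. Among the 5069 genes that averaged 10 CPM or more, those outside the list whose profile was most like that of the members were QCR7 (0.991), RPM2 (0.985), QCR10 (0.984), KGD4 (0.979) and RIP1 (0.979). QCR7, QCR10 and RIP1 encode subunits of the bc1 complex, which passes electrons to cytochrome c. RPM2 encodes the protein of mitochondrial RNase P, and KGD4 a subunit of alpha-ketoglutarate dehydrogenase. These correlations are over 8 libraries that share strains, and H3E50A alone sets much of the range.

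The regulators of these genes were measured in the same libraries. HAP4, the activating subunit of the Hap complex that is itself repressed by glucose, had 974 CPM in H3E50A and 93.8 CPM in WT H3, a ratio of 10.3 (log2 3.37, counting interval 3.14 to 3.63). It had 316 and 394 CPM in H4K16Q, against 234 and 96.2 CPM in WT H4 (log2 fold change 1.09 ± 0.91 SE, adjusted p = 0.997 in edgeR's quasi-likelihood test). In H4H18A it had 487 and 122 CPM, which overlapped WT H4. The groups of H4K16Q and WT H4 did not overlap in HAP4, nor in HAP1 and HAP3 (both higher in H4K16Q) or HAP5 (lower), as for 30.9% of all genes. Those of H4H18A and WT H4 did not overlap in HAP1, HAP3 and HAP5 (all higher in H4H18A), as for 26% of all genes.

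The other subunits of the complex changed less in H3E50A. The log2 ratio was 1.12 for HAP2, 0.47 for HAP3 and −0.61 for HAP5, the DNA-binding subunits. HAP1, the heme-responsive activator, had a log2 ratio of 0.58 and MIG1, the glucose repressor, 0.22. ROX1, the repressor of hypoxic genes such as COX5B, had 238 CPM in H3E50A and 63.8 CPM in WT H3, a ratio of 3.71 (log2 1.89, counting interval 1.6 to 2.21). In H4K16Q relative to WT H4 the 7 regulators lay between −0.87 (HAP5) and 1.09 (HAP4), and in H4H18A between −0.04 (MIG1) and 1.20 (HAP3). None passed the adjusted threshold in any H4 comparison, and HAP5 in H4K16Q relative to H4H18A had the only unadjusted p under 0.05 among them (log2 fold change −1.55 ± 0.67 SE, adjusted p = 1 in edgeR's quasi-likelihood test).

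Cytochrome c, the electron donor of the oxidase, is encoded by CYC1 in air and by CYC7 mainly under low oxygen. CYC1 had 361 CPM in H3E50A and 61.9 CPM in WT H3, a ratio of 5.79. It had 100 and 231 CPM in H4K16Q and 177 and 98.6 CPM in H4H18A, against 62.3 and 56.5 CPM in WT H4, so that both mutants were above WT H4 without overlap (log2 fold changes 1.47 ± 0.69 and 1.20 ± 0.69 SE, adjusted p = 0.997 and 0.999 in edgeR's quasi-likelihood test). CYC7 had 31.9 CPM in H3E50A and 5.21 CPM in WT H3, a ratio of 5.69. This ratio rests on 8 counts in WT H3 (log2 2.51, counting interval 1.59 to 3.85). CYC7 overlapped in each H4 mutant and WT H4. Unlike the pair of COX5A and COX5B, both cytochrome c genes were higher in H3E50A. COX26, a small further subunit, had 168 CPM in H3E50A and 7.81 CPM in WT H3, a ratio of 20.3 that rests on 12 counts in WT H3. COX26 also had a wider gap between replicates than any member, with 163 and 1.3 CPM in WT H4, of which the second was under the 3-count limit of that library (1.95 CPM).

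The other nuclear-encoded complexes of respiration were set beside the oxidase. In H3E50A relative to WT H3 the median log2 ratio was 2.84 for 9 genes of the bc1 complex, 2.35 for 14 of ATP synthase and 3.27 for 4 of succinate dehydrogenase, against 2.95 for the 8 oxidase members, and all of these genes were higher. Each of the first 2 complexes held 1 gene that stayed near WT H3, with a log2 ratio of 0.32 for QCR6 and 0.35 for ATP19. The lowest oxidase member was at 2.45, but COX5B, a nuclear oxidase gene outside the member list, was at −0.83. The highest genes of the other complexes were QCR10 (3.46), ATP7 (3.26) and SDH2 (4.37). The 33 factors that assemble the oxidase or translate its mitochondrial subunits had a lower median of 1.06, with 27 higher and 6 lower, between −2.02 (PET117) and 2.90 (COX20).

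In H4K16Q relative to WT H4 the medians were 0.23 for the bc1 complex, 0.44 for ATP synthase and 0.07 for succinate dehydrogenase, against 0.40 for the oxidase members. The assembly and translation factors had a median of −0.59, with 7 higher and 25 lower of 32 tested, between −1.63 (COX16) and 0.85 (RCF2). RCF1, which encodes a factor that binds the oxidase, was the only one of them with an unadjusted p under 0.05 (log2 fold change −1.54 ± 0.59 SE, adjusted p = 0.997 in edgeR's quasi-likelihood test), and was chosen after its value was seen. In H4H18A the medians were 0.05 for the bc1 complex, 0.06 for ATP synthase, −0.24 for succinate dehydrogenase and −0.23 for the assembly and translation factors (11 higher and 21 lower of 32). The lowest and highest of these factors in H4H18A were COX16 (−2.18) and COX19 (1.04). No gene of these lists passed the adjusted threshold in either comparison.

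**Figure D5:**
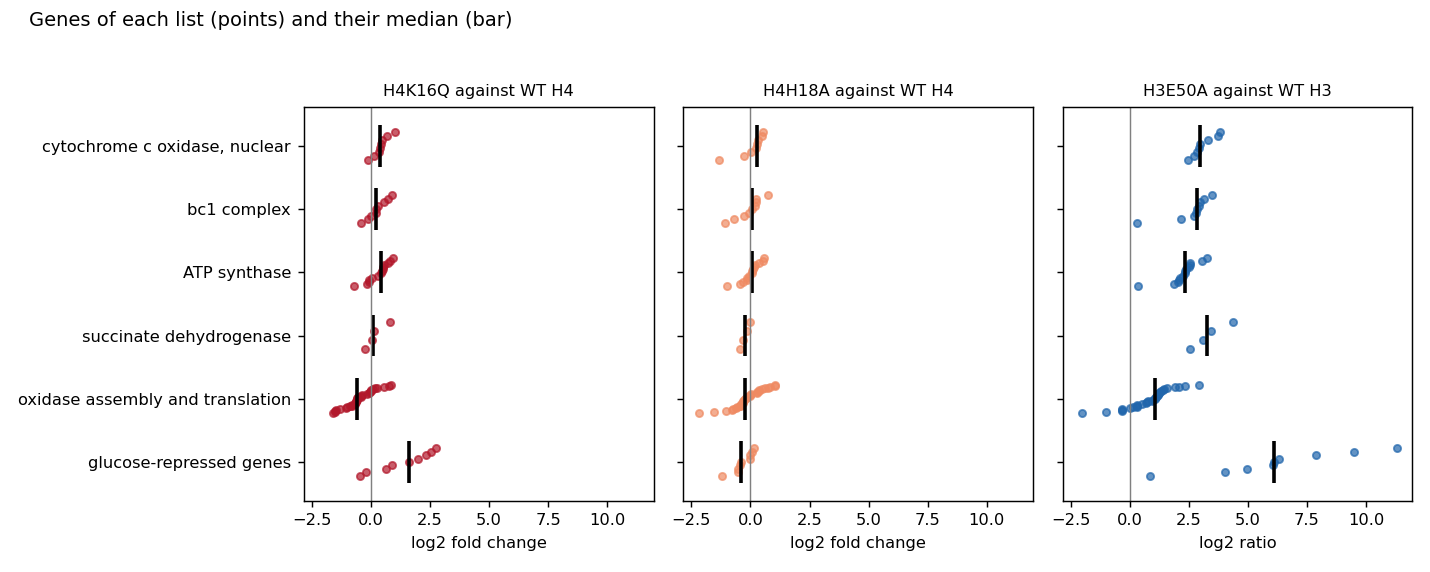
Log2 fold change (H4 mutants against WT H4) or log2 ratio (H3E50A against WT H3) of each gene of 6 lists, with the median of the list as a bar. In H3E50A the oxidase members (median 2.95) lie with the bc1 complex (2.84), ATP synthase (2.35) and succinate dehydrogenase (3.27), above the assembly factors (1.06) and below the glucose-repressed genes (6.11), while in the H4 mutants the oxidase medians are 0.40 and 0.26.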

How the data were processed

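The data were RNA-seq counts of 8 libraries from 5 strains at 16 h. The authors prepared stranded total RNA libraries and state that biological replicates were prepared independently of each other, and the submitters' processing notes name Trim Galore, STAR, featureCounts, edgeR and the build R64, with versions and the strand setting not given in the sources used here. The deposited tables hold raw counts per feature without normalization. Tables of the authors' own edgeR comparisons (fold changes and p-values) were not used. The members and all lists and tests were chosen with earlier results of these data known.

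The H4 libraries were fitted together with edgeR 4.0.16 (limma 3.58.1, R 4.3.3), after filterByExpr (minimum count 10, minimum total 15) and TMM scaling, and tested by its quasi-likelihood method without covariates, with Benjamini-Hochberg adjusted p-values and a threshold of 0.05. H3E50A and WT H3 were compared by the log2 ratio of their CPM (prior count 2) for 5962 genes. Such ratios understate the change of low genes. Counting intervals are exact (Clopper-Pearson, 95%). Positions and the windows of 300 bases came from the RefSeq annotation and genome of R64, in which 5917 (89.7%) of the features had a match. Its gene models hold no UTRs, so lengths are coding lengths. Named genes were the members, COX5B, COX1 to COX3, the regulators, the cytochrome c genes, the ends of each further list and the 5 most similar genes. Alternatives were DESeq2 1.42.0, RLE or total-count scaling, no filter, other sets of libraries, a replicate block, removal of ribosomal RNA and snoRNA features, other prior counts, all 3 WT libraries as control and each library left out. Depth lay between 621770 and 10529401 counts a library. The counts of the 2 replicates of an H4 strain differed, with a chi-square per gene of 60.9 (H4H18A) to 512 (H4K16Q). The study's ChIP-seq and lifespan data were not analysed here.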

Additional observations from a re-analysis of the deposited data

How the results depend on the processing

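Leaving out single libraries changed the most. The median log2 fold change of the 8 members then ranged between −0.14 and 1.44 in H4K16Q, −0.98 and 1.21 in H4H18A (both against WT H4), and −0.61 and 1.37 in H4K16Q against H4H18A. Genes called by the adjusted p ranged between 0 and 58, and 0 and 13, in the first 2 of these, and between 0 and 84, and 0 and 30, in the differences of the H3E50A effect from H4K16Q and H4H18A, with every nonzero count from leaving out WT H4 replicate 2. The alternatives of these differences were chosen after seeing the data, and the others among them also called 0. Members whose direction turned in H4K16Q ranged between −0.12 and 0.92 (COX5A), −1.90 and 1.69 (COX7), −1.07 and 1.21 (COX8), −0.62 and 1.15 (COX9), −0.66 and 2.04 (COX12), and −0.19 and 1.78 (COX13). In H4H18A they ranged between −1.91 and 1.21 (COX4), −0.32 and 1.29 (COX6), −2.54 and 0.24 (COX7), −1.45 and 1.52 (COX9), −0.94 and 1.66 (COX12), and −1.03 and 1.46 (COX13). In H4K16Q against H4H18A they ranged between −0.26 and 2.96 (COX4), −0.70 and 0.39 (COX5A), −0.55 and 0.73 (COX6), −0.67 and 2.68 (COX7), −0.82 and 1.5 (COX8), −1.02 and 1.34 (COX9), −1.04 and 1.65 (COX12), −0.24 and 1.41 (COX13), and −0.68 and 0.61 (COX5B).

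With total counts only, the median in H4H18A was −0.36, and COX4 (−0.36), COX6 (−0.039), COX9 (−0.37), COX12 (−0.23) and COX13 (−0.52) turned negative there, while COX5A (0.40), COX6 (0.44) and COX9 (0.18) turned positive in H4K16Q against H4H18A. Without ribosomal RNA and snoRNA features COX9 was at 0.0050 in H4K16Q. DESeq2 called 15 genes in H4K16Q and 6 in H4K16Q against H4H18A. The replicate numbers share no stated batch, and the tests did not take them to pair the libraries. Over all genes, the correlation of same-numbered deviations was −0.01 for H4K16Q with H4H18A, 0.10 for H4K16Q with WT H4 and 0.41 for H4H18A with WT H4. Of the members, however, 8, 7 and 8 were higher in replicate 1 in H4K16Q, H4H18A and WT H4. The SE of the tests without a block includes this shared difference. With a replicate block 0 genes were called in each comparison, the medians of the members were 0.41, 0.14 and 0.31, and the sign turned for COX7 (−0.088) and COX9 (0.31) in H4K16Q, COX4 (−0.13) in H4H18A and COX9 (0.17) between the mutants. No member passed the adjusted threshold under any of these alternatives. The causes of these turns were not tested.

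For H3E50A against WT H3 all 8 members were higher under each alternative, and the median was 2.77 without ribosomal RNA and snoRNA features and 2.81 against all 3 WT libraries. In an edgeR fit of all 8 libraries it was 2.96, with 4 of 8 members and 281 of the 5962 genes at an unadjusted p under 0.05, and a smallest adjusted p of 0.803 among the members (quasi-likelihood test, the lone libraries of H3E50A and WT H3 assumed to vary like the replicated strains). With 1 library of each strain and growth-stage markers that moved with the members, strain and culture cannot be told apart. Depth limits COX7 and COX8, which had as few as 4 and 8 counts in H4H18A.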
